A study of Mus musculus with 6 samples.

Results

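Pax6 and the genes around it on mouse chromosome 2 were followed in 6 libraries of MIN6 cells. This line was derived from a mouse insulinoma and stands in for pancreatic beta cells. The genes were taken by symbol: Pax6, its antisense transcript Pax6os1 and the flanking genes Elp4, Immp1l, Dnajc24, Rcn1 and Mpped2. All 7 symbols were among the 23284 with counts. RNA sequencing libraries were made from 3 samples given a control antisense oligonucleotide (ASO), called Control KD, and 3 given an ASO against Paupar, called Paupar KD. Paupar is a long noncoding RNA transcribed beside Pax6, and the comparison asks what its knockdown does to expression. The labels name no dose, time or vehicle, and do not say whether replicates were separate cultures, so p-values here reflect only how these libraries spread, which may be technical. No symbol matched Paupar, so its own level was not analysed here.

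PAX6 is a transcription factor with a paired domain and a homeodomain. It is required for the formation of the eye, parts of the brain and the endocrine cells of the pancreas, and adult beta cells need it to keep insulin production and to hold other islet programmes down. Its expression is controlled by enhancers spread over a long stretch of chromosome, some of them inside introns of the neighbouring Elp4 gene. The proteins of the neighbouring genes do unrelated work, and whether these genes share that control was not tested. ELP4 is a subunit of Elongator, which modifies transfer RNAs. IMMP1L is a subunit of the inner mitochondrial membrane peptidase, DNAJC24 (also called DPH4) a J-domain protein of diphthamide synthesis, RCN1 a calcium-binding protein of the endoplasmic reticulum, and MPPED2 a metallophosphoesterase.

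In the GENCODE M1 annotation of NCBIM37, the assembly called mm9, Pax6 lies on the plus strand at chr2:105509053-105543317 and has 33 annotated transcripts with 29 different starts. Pax6os1 is annotated on the minus strand at chr2:105376237-105510487. It starts inside Pax6 and runs away from it, so the 2 genes overlap over 1435 bases, but they share 0 annotated exon bases. Elp4 is on the minus strand at chr2:105537477-105744721 and meets Pax6 tail to tail. Their exons share 5542 bases, all from the last exon of 1 of 4 Elp4 transcripts. Immp1l, on the plus strand at chr2:105744795-105805715, begins 73 bases beyond the start of Elp4. Dnajc24 follows on the minus strand at chr2:105806866-105843706. Rcn1 lies on the other side, on the minus strand at chr2:105226448-105239476, and Mpped2 on the plus strand at chr2:106533426-106708513, with its start 1024 kb from that of Pax6.

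The sequences at the starts of the genes show how differently these neighbours begin. The 250 bases before the annotated start of Pax6 (NCBIM37, chr2:105508803-105509052, plus strand) and of Pax6os1 (chr2:105510488-105510737, minus strand) are shown because these 2 genes had lower levels together. Rcn1 was also lower in every Paupar KD library, but its window is not printed. The Pax6 window lies before the first of its 29 annotated starts only. The stretch from the start of Elp4 to the start of Immp1l (chr2:105744721-105744795, plus strand) is shown because it separates a divergent pair whose levels did not move with Pax6. Capitals mark matches to 5 motifs, searched on both strands. They are the cAMP response element spelled TGACGTCA, the CCAAT box spelled by its name, the GC box spelled GGGCGG, the TATA box spelled TATAAA and a core bound by homeodomain proteins spelled TAATTA, and no match shown overlapped another. In the last sequence only CCAAT was searched.
Pax6: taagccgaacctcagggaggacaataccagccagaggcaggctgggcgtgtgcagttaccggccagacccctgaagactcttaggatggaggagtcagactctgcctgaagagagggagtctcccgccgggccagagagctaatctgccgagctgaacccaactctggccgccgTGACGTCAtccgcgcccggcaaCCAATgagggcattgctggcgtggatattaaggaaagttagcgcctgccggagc
Pax6os1: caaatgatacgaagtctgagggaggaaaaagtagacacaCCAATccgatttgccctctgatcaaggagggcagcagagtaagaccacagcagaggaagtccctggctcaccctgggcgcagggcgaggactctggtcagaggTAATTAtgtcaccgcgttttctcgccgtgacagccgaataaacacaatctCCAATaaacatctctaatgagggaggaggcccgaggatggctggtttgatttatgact
Elp4 to Immp1l: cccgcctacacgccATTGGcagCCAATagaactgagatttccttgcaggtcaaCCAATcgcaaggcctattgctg

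The Pax6 window held the 8-base cAMP response element 76 bases before the start and 1 CCAAT 54 bases before it. That element was present in 1.91% of 22375 windows of 250 bases before annotated protein-coding genes, and CCAAT in 35% of them. The Pax6os1 window held CCAAT 211 and 58 bases before its start and TAATTA 108 bases before it, a word found in 4.62% of windows. No cAMP response element was found in the windows of the other 6 genes. The 75 bases from Elp4 to Immp1l held CCAAT 3 times. At least 1 CCAAT was present in 15.2% of the 75-base windows before annotated genes, and 3 or more in 0.134%. TATAAA occurred once among the 7 windows of 250 bases, 21 bases before the start of Dnajc24; it was in 12.3% of all windows. The GC box, in 39.6% of windows, occurred in those of Immp1l, Rcn1 and Mpped2. These matches describe the letters only.

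Libraries held 16973622 to 28693863 counts. The Paupar KD libraries were less alike than the controls, with a biological coefficient of variation of 18.7% against 4.95%, and Paupar KD replicate 1 stood farthest from the others. Levels are CPM (reads of a gene per fixed number of library reads, adjusted by TMM factors), listed within a group in the order of replicates 1 to 3, and differences are log2 fold changes of Paupar KD over Control KD from edgeR's quasi-likelihood test, with the standard error (SE) and p adjusted over all 13039 tested genes at a threshold of 0.05. Of those genes, 6 passed, 5 higher and 1 lower, which is 0.046% of the genes. Of these 6, 0 belong to the Pax6 locus. The beta cell markers listed for MIN6 were all expressed: 10 of 10 passed the low-count filter, with Ins2 at 15995 ± 1422 CPM in controls (SD, n = 3). Markers of delta, PP and epsilon islet cells were near 0 and summed to 0.511 to 1.02 CPM in controls and 0.880 to 2.83 CPM in Paupar KD. Gcg, the glucagon gene, was at 71.05 ± 4.83 CPM in controls.

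Of the 7 locus genes, 6 passed the low-count filter, and each of these 6 was above its cutoff of 0.436 CPM in all 6 libraries. Mpped2 had 0 counts in every library; a count of 0 allows up to 0.105 to 0.177 CPM per library, for counting error only. After adjustment over all genes, edgeR called 0 of the 6 tested genes, against 0.046% of all genes. At an unadjusted p under 0.05 it gave 3 of the 6 lower and 0 higher, against 8.11% of all genes lower and 9.63% higher. DESeq2 called 2 of the 6 lower, Pax6 and Pax6os1, and 0 higher, against 1.72% lower and 2.05% higher among all 12759 genes to which it gave an adjusted p. Limma-voom called 0 of the 6. For 3 of the 6, Pax6, Pax6os1 and Rcn1, every Paupar KD library was below every control, and 0 of the 6 lay above. Over all tested genes such separation was seen for 13.3% in the lower direction and 13.7% in the higher. The median log2 fold change of the 6 was -0.40, against 0.0057 for all tested genes. Elp4, Immp1l and Dnajc24 had overlapping groups.

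**Figure D1:**
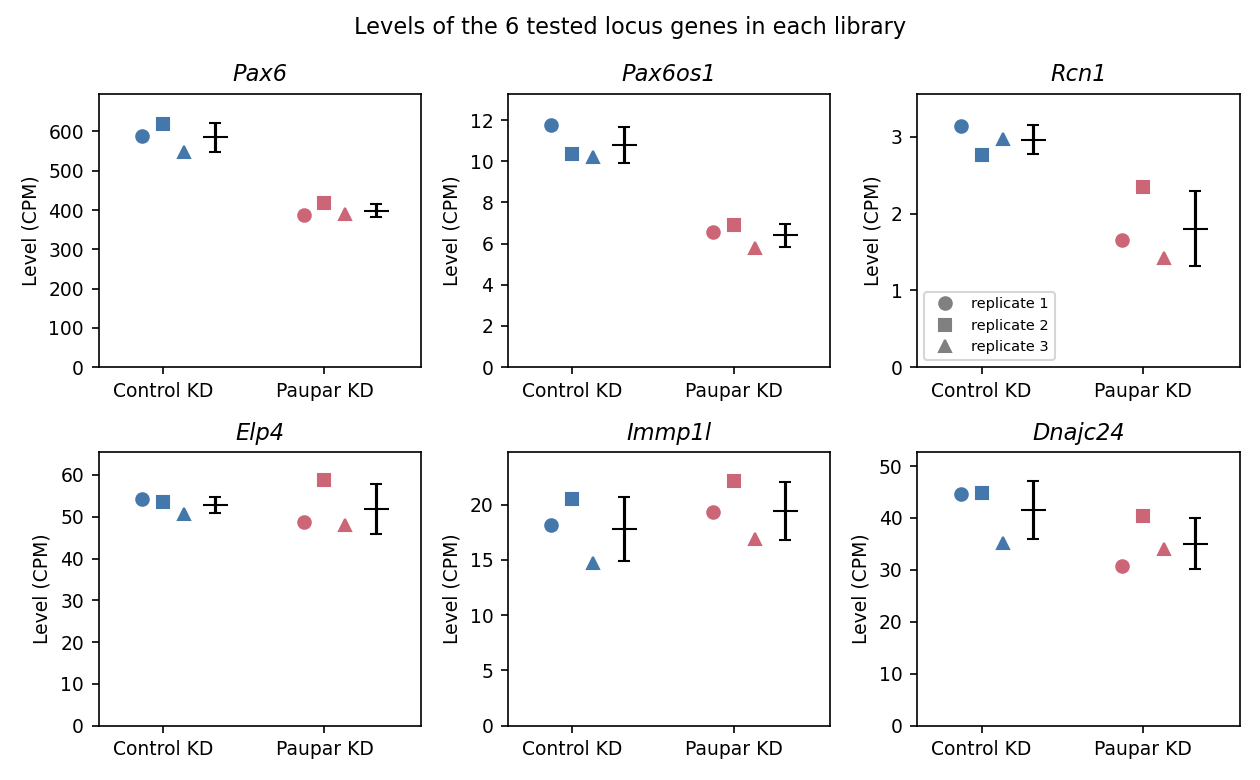
Level in CPM (vertical axes, from 0) of the 6 tested locus genes in the 3 Control KD (blue) and 3 Paupar KD (red) libraries, with mean ± SD as black bars. For Pax6, Pax6os1 and Rcn1 the groups lie apart, with Pax6 at 547 to 619.9 CPM in controls and 387 to 417 CPM in Paupar KD, and for Elp4, Immp1l and Dnajc24 they overlap.

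Pax6 was among the more abundant transcripts of these cells, ranking 128 by CPM of the 13039 tested genes in controls. It was counted at 588, 619.9 and 547 CPM in the controls, from 13266, 14557 and 15677 reads. In the Paupar KD libraries it was at 387, 417 and 389 CPM, from 6570, 8531 and 9069 reads. All 3 Paupar KD libraries were lower, and they lay closer to one another than the controls did. The means were 585 ± 36.4 and 398 ± 16.7 CPM (SD, n = 3 per group), 0.68 of the control level. The log2 fold change was -0.56 ± 0.09 SE, with a 95% interval of -0.76 to -0.35, and it missed the threshold (edgeR adjusted p = 0.0694). Its p ranked 38 of 13039 genes, and 494 genes (3.79%) had a more negative log2 fold change. In bulk RNA, fewer cells with a transcript and less transcript per cell cannot be told apart.

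Library by library, Pax6 stood at 0.66, 0.71 and 0.67 of the control mean in the Paupar KD libraries. The coefficient of variation of its CPM in Paupar KD was 4.21%, against a median of 11.4% for the 449 genes within 2-fold of its control level, and 35 of those 449 had a smaller one. The level in Paupar KD replicate 1, the library farthest from the rest over all genes, was thus close to those in replicates 2 and 3. Whether Pax6 passed over all genes depended on single libraries: it did without Paupar KD replicate 1 (log2 fold change -0.54, edgeR adjusted p = 0.0160) and without Paupar KD replicate 3 (-0.54, edgeR adjusted p = 0.0198). Without Paupar KD replicate 2 or any single control it did not (-0.60 to -0.52, edgeR adjusted p = 0.159 to 0.493). In those fits edgeR called 0 genes of any kind. Over all genes it called 128 of 13171 lower without Paupar KD replicate 1 and 745 of 13148 lower without Paupar KD replicate 3. With all 6 libraries DESeq2 gave -0.56 and an adjusted p of 4.34e-06.

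Pax6os1, the noncoding transcript read in the other direction from inside Pax6, was at 11.8, 10.3 and 10.2 CPM in the controls, from 266, 243 and 293 reads. In the Paupar KD libraries it was at 6.55, 6.90 and 5.79 CPM, from 111, 141 and 135 reads. The groups lay apart, with every Paupar KD library lower. The means were 10.8 ± 0.86 and 6.41 ± 0.56 CPM, 0.59 of the control level, with a log2 fold change of -0.75 ± 0.13 SE and a 95% interval of -1.06 to -0.44 (edgeR adjusted p = 0.0856). Like Pax6, it passed without Paupar KD replicate 1 (edgeR adjusted p = 0.0402), without Paupar KD replicate 3 (edgeR adjusted p = 0.0247) and with DESeq2 (adjusted p = 0.00118). Over all genes, 128 of 13171 were called lower in the first of these fits, 745 of 13148 in the second and 1.72% with DESeq2. Whether the counting used strand is not stated in the labels, so RNA of Pax6 that still holds its introns cannot be told apart from Pax6os1 where the genes overlap.

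Set against Pax6 within each library, Pax6os1 reads amounted to 2.005%, 1.67% and 1.87% of Pax6 reads in the controls. In the Paupar KD libraries they amounted to 1.69%, 1.65% and 1.49%. These groups overlapped: control replicate 2 was below Paupar KD replicate 1. The mean ratio was 1.85% ± 0.17 in controls and 1.61% ± 0.11 in Paupar KD, a log2 difference of -0.20 (exact two-sided permutation p = 0.20; 3 against 3 libraries cannot go below 0.10). Because of that limit, this test cannot decide whether Pax6os1 changed beyond Pax6.

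Elp4, the convergent neighbour of Pax6, was at 54.2, 53.4 and 50.5 CPM in the controls and at 48.7, 58.9 and 48.1 CPM in the Paupar KD libraries. Paupar KD replicate 2 was the highest of the 6 libraries and the other 2 Paupar KD libraries the lowest. The means were 52.7 ± 1.92 and 51.9 ± 6.07 CPM, and the log2 fold change was -0.02 ± 0.10 SE with a 95% interval of -0.26 to 0.22 (edgeR adjusted p = 0.925). The sign of this small difference turned under some alternatives, among them upper-quartile scaling (0.0056). The intervals of Elp4 and Pax6 did not overlap. The number of Pax6 reads per Elp4 read, which needs no scaling between libraries, was 10.8, 11.6 and 10.8 in the controls and 7.96, 7.09 and 8.09 in the Paupar KD libraries. All 3 Paupar KD ratios were lower, at a mean of 7.71 ± 0.55 against 11.1 ± 0.44, a log2 difference of -0.53 (exact two-sided permutation p = 0.10, the smallest that 3 against 3 allows). Of the exon bases of Elp4, 78.9% are shared with Pax6 exons in the annotation used here, and the labels do not say how reads there were counted.

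**Figure D2:**
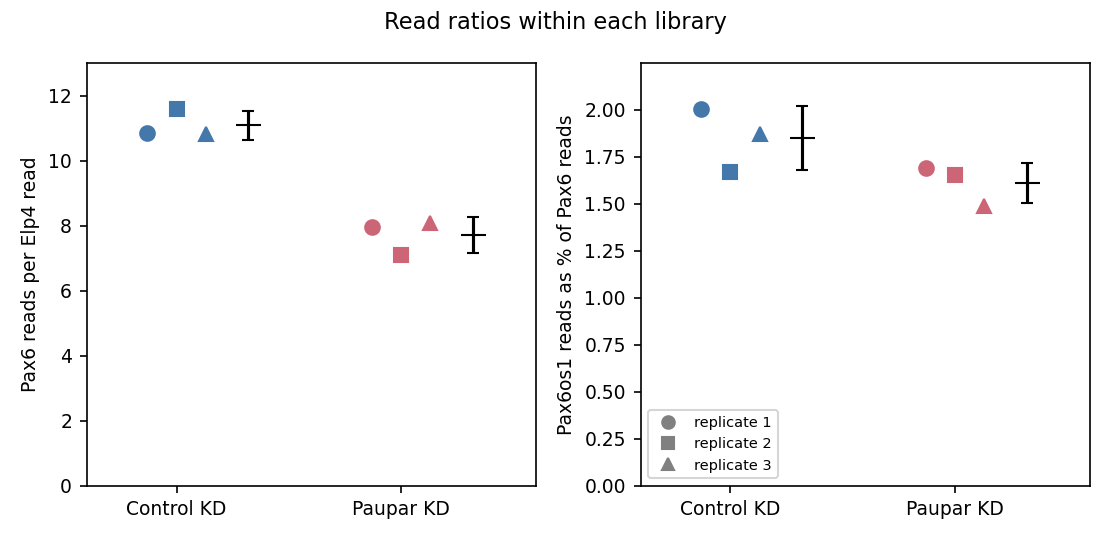
Reads of Pax6 per read of Elp4 (left) and reads of Pax6os1 as a percent of Pax6 reads (right) within each library, with mean ± SD as black bars. The Pax6 to Elp4 ratio is 10.8 to 11.6 in controls and 7.09 to 8.09 in Paupar KD, while the Pax6os1 to Pax6 ratios of the groups overlap.

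Immp1l, which shares the short start region with Elp4, was at 18.2, 20.5 and 14.8 CPM in the controls and at 19.3, 22.2 and 16.9 CPM in the Paupar KD libraries. The groups overlapped over most of their range. The log2 fold change was 0.13 ± 0.16 SE, with a 95% interval of -0.23 to 0.49 (edgeR adjusted p = 0.689). Values between those bounds are not excluded by these libraries.

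Dnajc24, the next gene along the chromosome, was at 44.7, 44.8 and 35.1 CPM in the controls and at 30.7, 40.4 and 34.03 CPM in the Paupar KD libraries. Control replicate 3 lay within the Paupar KD range, so the groups overlapped. The means were 41.5 ± 5.53 and 35.07 ± 4.94 CPM and the log2 fold change was -0.24 ± 0.14 SE, with a 95% interval of -0.56 to 0.08 (edgeR adjusted p = 0.383). That interval overlaps the interval of Pax6 and also includes 0.

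Rcn1, on the other side of Pax6os1, was scarce. It had 71, 65 and 85 reads in the controls and 28, 48 and 33 in the Paupar KD libraries, which gave 3.15, 2.77 and 2.97 CPM against 1.65, 2.35 and 1.42 CPM. Every Paupar KD library was lower than every control, with replicate 2 nearest to them. The means were 2.96 ± 0.19 and 1.805 ± 0.48 CPM and the log2 fold change was -0.71 ± 0.23 SE, with a 95% interval of -1.25 to -0.18 (edgeR adjusted p = 0.206). Its log2 fold change was larger in size than that of Pax6 and its interval was wider.

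Comparing levels between genes needs a length, and for Pax6 and Elp4 the result depends on which length is taken. With all annotated exons (19833 bases for Pax6), control levels were 30.3 ± 4.04 RPKM (the CPM divided by the length in kilobases) for Dnajc24, 29.5 ± 1.84 for Pax6, 18.6 ± 3.01 for Immp1l, 7.51 ± 0.27 for Elp4, 6.66 ± 0.53 for Pax6os1 and 0.93 ± 0.06 for Rcn1. Dnajc24 and Pax6 did not differ beyond their spread on that scale. Of the 7025 exon bases taken for Elp4, 5542 are shared with Pax6 exons, and how reads there were counted is not stated. The place of Elp4 in this order is therefore uncertain. With the longest coding transcript (8401 bases for Pax6), Pax6 was at 69.6 ± 4.33 RPKM in controls, against 34.7 ± 4.62 for Dnajc24. With the median length of the coding transcripts (1902 bases for Pax6), Pax6 was at 308 ± 19.1 RPKM in controls, against 46.1 ± 6.13 for Dnajc24. Elp4 was at 13.9 ± 0.51 RPKM in controls with its median length of 3795.5 bases, which is the length of none of its 4 transcripts. Rcn1 was the lowest of the 6 under each of these lengths, and its control level with the median coding length was 1.09 ± 0.07 RPKM.

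The surroundings were then widened to all genes annotated within 1 Mb of Pax6. Of 35 annotated genes, 18 were among the counted symbols and 12 were tested, the 6 locus genes and 6 others, all of which lie 652 to 957 kb from Pax6 on the side of Rcn1. In edgeR 0 of the 12 passed over all genes. The 6 others had a median log2 fold change of -0.13, with 5 negative and 1 positive, against 49.0% negative over all tested genes. For 2 of these 6, Qser1 and Ccdc73, the groups lay apart with Paupar KD lower, and these 2 also had an unadjusted p under 0.05, against 13.3% and 8.11% of all tested genes in that direction. DESeq2 called 0 of the 6, against 1.72% lower and 2.05% higher over all genes. For 0 of 6 the groups lay apart with Paupar KD higher, against 13.7% of all tested genes. Wt1, the Wilms tumour transcription factor gene between them and Rcn1, had 0 counts in all libraries.

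Qser1 was at 78.1, 84.4 and 86.9 CPM in the controls and at 41.05, 68.3 and 64.7 CPM in the Paupar KD libraries, with replicate 1 the lowest by far (log2 fold change -0.52 ± 0.18 SE, edgeR adjusted p = 0.223). Ccdc73 was scarce, at 2.72 ± 0.23 and 1.69 ± 0.37 CPM (-0.69 ± 0.22 SE, edgeR adjusted p = 0.206). Eif3m, a subunit gene of translation initiation factor eIF3 that overlaps Ccdc73, was at 86.7 ± 2.72 and 86.01 ± 3.41 CPM (-0.01 ± 0.08 SE, edgeR adjusted p = 0.951). Prrg4 (-0.24), Depdc7 (-0.03) and Tcp11l1 (0.09) had overlapping groups. A list of 19 wider neighbours, which reaches further out and holds these 6, had 15 symbols with counts and 12 tested. Of those 12, 0 passed. The 2 that were lower at an unadjusted p under 0.05 were again Qser1 and Ccdc73, against 8.11% of all tested genes. The log2 fold change was below 0 for 10 and above 0 for 2, and its median was -0.12. Over all tested genes 49.0% were below 0. The other 6 tested genes of the list included Caprin1, at 990.4 ± 31.3 and 862 ± 75.1 CPM with the groups apart (edgeR adjusted p = 0.306). With Qser1 and Ccdc73 that made 3 of the 12 apart and lower, against 13.3% of all tested genes.

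**Figure D3:**
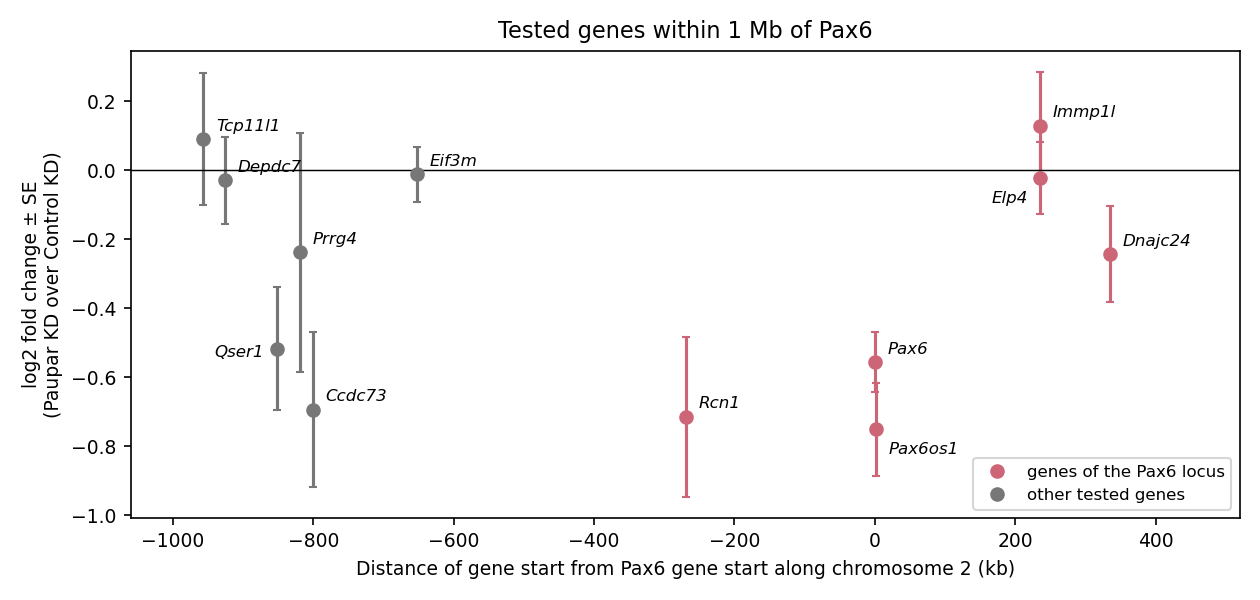
Log2 fold change ± SE of Paupar KD over Control KD (vertical axis) of the 12 tested genes within 1 Mb of Pax6, by the distance of each gene start from that of Pax6 in kb (horizontal axis). Pax6 (-0.56) and Pax6os1 (-0.75) lie low together, Elp4 (-0.02) and Immp1l (0.13) near 0, and edgeR called 0 of the 12 over all genes, while DESeq2 called Pax6 and Pax6os1.

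The genes whose levels ran most like those of Pax6 over the 6 libraries were Trmt2b, Irf2, 2610316D01Rik, Foxo1 and 1300002E11Rik, with Pearson correlations of log2 CPM of 0.991 to 0.995. They were the first 5 of 10677 genes with a mean of at least 5 CPM, of which 71 (0.665%) exceeded 0.95. These points share their libraries and fall into the 2 groups, so the value mostly reflects a group difference with little spread inside each group. Foxo1, a forkhead transcription factor gene of insulin signalling, was at 72.9 ± 2.996 and 53.5 ± 3.47 CPM (log2 fold change -0.45 ± 0.09 SE, edgeR adjusted p = 0.106). Irf2, an interferon regulatory factor gene, was at 24.4 ± 1.52 and 18.6 ± 0.87 CPM (-0.39 ± 0.10 SE, edgeR adjusted p = 0.149), and 1300002E11Rik at 36.8 ± 2.39 and 23.8 ± 2.22 CPM (-0.63 ± 0.10 SE, edgeR adjusted p = 0.0728). By the same measure Pax6os1 gave 0.964, Rcn1 0.885, Dnajc24 0.743, Elp4 0.300 and Immp1l -0.144.

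Genes tied to PAX6 in endocrine cells, as targets or partners, were taken from a list of 32, of which 28 were tested. In edgeR 0 passed over all genes, with 6 higher and 3 lower at an unadjusted p under 0.05, against 9.63% and 8.11% of all tested genes. DESeq2 called 3 of them, Rfx6 lower and Cck and Etv1 higher, against 1.72% lower and 2.05% higher over all genes. The log2 fold change was above 0 for 19 and below 0 for 9, and its median was 0.06 against 0.0057 for all genes. The groups lay apart for 5 with Paupar KD higher and 4 with Paupar KD lower, 9 of 28, against 27.1% of all tested genes. The smallest p belonged to Rfx6, a transcription factor gene of islet development, which was at 67.6, 76.1 and 65.9 CPM in the Paupar KD libraries against 99.1 ± 3.93 CPM in controls (log2 fold change -0.50, edgeR adjusted p = 0.0856). Cck, the cholecystokinin gene, was at 1484, 1619 and 1706 CPM in the Paupar KD libraries against 1165 ± 117 CPM in controls (0.46, edgeR adjusted p = 0.133). Etv1, an ETS transcription factor gene, was at 113, 143 and 111 CPM against 87.9 ± 9.82 CPM (0.48, edgeR adjusted p = 0.162). In these 3 genes, named for their small p, every Paupar KD library lay on one side of all controls. Mafa, Ins1, Ins2 and Gcg were among those highest in Paupar KD replicate 1, and Ins2 was also higher in every Paupar KD library. Replicate 1 was the highest of the 3 Paupar KD libraries for 5256 of all 13039 tested genes.

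**Figure D4:**
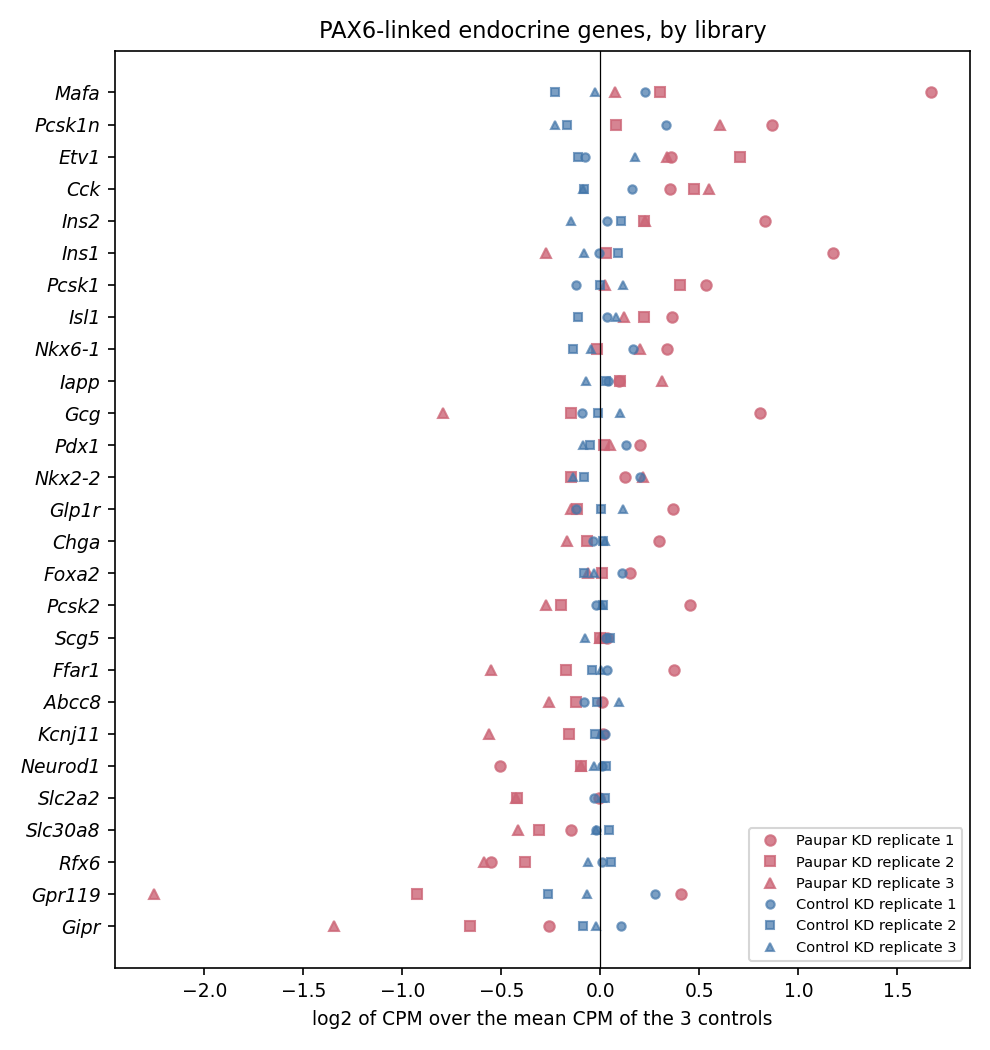
Log2 of the CPM in each library over the mean CPM of the 3 controls (horizontal axis) for 27 of the 28 tested PAX6-linked genes (vertical axis, ordered by log2 fold change), with controls in blue and Paupar KD in red. Paupar KD points spread to both sides of 0, with 18 positive and 9 negative log2 fold changes among the genes drawn. EdgeR called 0 over all genes and DESeq2 called Rfx6, Cck and Etv1.

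Other PAX genes were scarce beside Pax6. Of the 8 other family members, 4 had 0 counts in every library (Pax1, Pax3, Pax7 and Pax9) and 3 were tested. Of these, 0 passed, and 0 had an unadjusted p under 0.05. Pax4, which acts in beta cell formation, was at 1.39 ± 0.55 and 1.26 ± 0.13 CPM (edgeR adjusted p = 0.866). Pax5 was at 2.99 ± 0.53 and 4.10 ± 0.95 CPM (edgeR adjusted p = 0.348), and Pax2 at 0.74 ± 0.14 and 0.90 ± 0.28 CPM (edgeR adjusted p = 0.689).

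Partners of the neighbouring genes were checked from lists of their complexes and pathways. Of the 5 tested genes of Elongator and its regulators, 0 passed, 0 had an unadjusted p under 0.05, and the median log2 fold change was 0.08. Ikbkap, the gene of the scaffold subunit, was at 119 ± 7.44 and 98.5 ± 15.0 CPM, Elp3, the catalytic subunit, at 134 ± 3.502 and 150.4 ± 12.2 CPM, and Kti12 at 23.7 ± 3.13 and 27.6 ± 3.37 CPM (edgeR adjusted p = 0.287, 0.345 and 0.407). Immp2l, the other subunit gene of the inner membrane peptidase, was at 3.87 ± 0.25 and 3.81 ± 1.22 CPM (edgeR adjusted p = 0.971), and Immt, a gene of inner membrane architecture listed with it, at 220.2 ± 2.93 and 193 ± 25.7 CPM (edgeR adjusted p = 0.367).

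Of 7 tested diphthamide genes, 0 passed and the median log2 fold change was 0.01. The only gene with an unadjusted p under 0.05, Dph3, was at 39.9 ± 1.93 and 46.2 ± 1.85 CPM, with every Paupar KD library higher (edgeR adjusted p = 0.264). Dph2 was also higher in every Paupar KD library, at 16.1 ± 0.997 and 17.8 ± 0.53 CPM, and Wdr85 was at 20.3 ± 0.13 and 22.5 ± 2.60 CPM (edgeR adjusted p = 0.476 and 0.499). Over all tested genes, 9.63% were higher at an unadjusted p under 0.05, and 13.7% were higher in every Paupar KD library. Of 3 tested relatives of Rcn1, 0 passed and 1 had an unadjusted p under 0.05. That gene, Rcn2, was at 102 ± 4.72 and 121 ± 5.80 CPM with the groups apart and Paupar KD higher (log2 fold change 0.25, edgeR adjusted p = 0.221). The shares over all tested genes are those just given. Calu and Sdf4 had log2 fold changes of -0.05 and 0.01. Mpped1, the relative of Mpped2, reached at most 0.0590 CPM in any library and was not tested.

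In edgeR the lists of markers of other cell types held 0 calls. At an unadjusted p under 0.05, Dpp4 was lower among 5 tested alpha cell markers and Cela1 among 2 exocrine and duct markers. Cd68 was lower among 3 tested mesenchymal, endothelial and immune markers, and Th among 5 neuronal and glial markers. The share over all tested genes was 8.11%. Among the same tested markers DESeq2 called Dpp4, Cd68 and Th lower, against 1.72% of all genes. Summed levels of the alpha cell list overlapped between groups (2411 to 2591 CPM in controls, 2169 to 3008 CPM in Paupar KD), and Ttr and Slc38a5 made up most. The exocrine and duct list ran from 229 to 243 CPM in controls and from 216 to 329 CPM in Paupar KD, nearly all of it Krt7, with 5 of 10 genes at 0. Mesenchymal, endothelial and immune markers summed to 4.17 to 4.82 CPM in controls and 3.37 to 3.95 CPM in Paupar KD, with Col3a1, Vim, Cdh5 and Ptprc at 0. Their part in the Pax6 result was not tested. Neuronal and glial markers, which beta cells partly express, summed to 753 to 762 CPM in controls and 599 to 818 CPM in Paupar KD.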

How the data were processed

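RNA was sequenced from 3 Control KD and 3 Paupar KD libraries of MIN6 cells, grouped by the titles in the labels. The authors deposited 1 raw read count per gene symbol and library, without normalization. The submitters' processing notes name build mm9 and the tools HISAT2, HTSeq, DESeq2 and CASAVA 1.8.2, without roles. The strand setting, overlap rule and annotation of the counting are not stated there. Total counts were 16973622 to 28693863, and a gene's reads set its precision.

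Counts were tested with edgeR 4.0.16 in R 4.3.3: filterByExpr with a minimum count of 10, TMM, robust quasi-likelihood test, Benjamini-Hochberg adjustment over 13039 genes. SE was the size of the log2 fold change divided by the square root of F. Log2 CPM for likeness used a prior count of 2. Read ratios within libraries were compared by exact permutation of all 3 against 3 splits. The fit was tested on simulated data. Some listed genes are not reported here by name.

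The locus genes and gene lists were chosen with earlier results of these data known. Named were the locus genes, the 5 genes most like Pax6, tested genes within 1 Mb, and per list up to 3 genes of smallest p; any others were picked with values in view. Alternatives were other scaling, filters, DESeq2 1.42.0, limma-voom (limma 3.58.1), no robust estimation, leaving out each library and a replicate block; limma-voom using quality weights was added after seeing the data. No replicate pair agreed within sampling noise (mean chi-square per gene 3.46 to 81.9). Positions and sequences are from NCBIM37 with GENCODE M1.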

Additional observations from a re-analysis of the deposited data

How the results depend on the processing

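Over all genes edgeR called 5 higher and 1 lower. Upper-quartile factors gave 3 higher and 0 lower, dropping the low-count filter 36 higher and 24 lower, and a filter at a mean CPM of 1 gave 2 higher and 0 lower. DESeq2 gave 262 higher and 220 lower, and quality weights in limma-voom 745 higher and 950 lower. With 1 library left out the counts ran from 0 to 611 higher and from 0 to 745 lower: both were 0 when any control or Paupar KD replicate 2 was dropped, dropping Paupar KD replicate 1 gave 123 higher and 128 lower, and dropping Paupar KD replicate 3 gave the highest counts. The cause was not tested. Pax6 kept a negative log2 fold change in 16 of 16 alternatives and passed in 5: without a low-count filter (-0.57, edgeR adjusted p = 0.0411), with DESeq2 (-0.56), with quality weights (-0.53, limma adjusted p = 0.00180) and when Paupar KD replicate 1 or 3 was dropped; leaving out 1 library gave -0.60 to -0.52. Among the other locus genes 0 passed, but 1, Pax6os1, did with DESeq2, with quality weights and in 2 of the 6 fits with a library left out (range 0 to 1). Lower calls over all genes were 1.72% with DESeq2 and 950 of 13039 with quality weights. They were 128 of 13171 without Paupar KD replicate 1 and 745 of 13148 without Paupar KD replicate 3. Pax6os1, Rcn1, Dnajc24 and Immp1l kept their direction in 16 of 16 alternatives each, but the sizes moved. With 1 library left out, Pax6os1 ran from -0.82 to -0.68, Rcn1 from -0.96 to -0.55 and Dnajc24 from -0.36 to -0.16. Immp1l ran from 0.0088 without Control KD replicate 3 and 0.017 without Paupar KD replicate 2 to 0.23 without Control KD replicate 2 or Paupar KD replicate 3. Elp4 turned positive with upper-quartile factors (0.0056), with quality weights (0.080), when Paupar KD replicate 1 was dropped (0.015) and when Paupar KD replicate 3 was dropped (0.030). With 1 library left out it ran from -0.13 to 0.030, and it was never called. The log2 Pax6 to Elp4 ratio difference was -0.56 to -0.47 and the Pax6os1 to Pax6 difference -0.27 to -0.14 with 1 library left out. With a replicate block, edgeR called 1 higher and 0 lower genes, and Pax6 had a log2 fold change of -0.55 (edgeR adjusted p = 0.115); the read ratios kept their values by construction (-0.53 and -0.20, exact sign-flip p = 0.25 for each, the smallest that 3 pairs allow). The labels give the replicates only a number: deviations of same-numbered libraries correlated at 0.07, -0.01 and 0.0061, and only Paupar KD replicate 1 correlated best with its own number. Among the tested locus genes Rcn1 had 28 to 85 reads per library and Pax6os1 111 to 293, which limits their precision.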

Other observations

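Among the 3 Paupar KD libraries, replicate 2 had the highest level of all 6 tested locus genes (Pax6, Pax6os1, Elp4, Immp1l, Dnajc24 and Rcn1), a pattern noticed after the values were seen. Over all 13039 tested genes, replicate 2 was the highest of the 3 for 24.6% and the middle one for 51.3%. Among the controls, replicate 3 was the lowest for 5 of the 6, all but Rcn1, against 35.9% of all tested genes. Neighbouring genes are not independent of one another, and these shares are a description with no test.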
